A study of Mus musculus with 6 samples.

Results

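Cyclins D1, D2, D3, E1, E2 and A2 and the kinases that they switch on, Cdk4, Cdk6, Cdk2 and Cdk1, take a cell through G1 and S phase. The 10 genes that encode them were read on 6 microarrays of sorted neonatal mouse islet cells. They were chosen by name, and every probe that is not a control and whose RefSeq accession belongs to 1 of these genes was taken, which gave 16 probes of the 56605 on the array and 10 of the 45616 genes that were tested. The study singles out *Ccnd1*, *Ccnd3*, *Ccna2*, *Cdk1*, *Cdk2* and *Cdk6* from these same samples, so that their values below are no independent evidence of their direction.

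By the series' design text the pups, on postnatal day 1 (P1), were *Wnt4eGFPCre;mTmG*: a *Wnt4* allele that carries EGFP and Cre, *Wnt4* tm2(EGFP/cre)Svo, was combined with the mTmG reporter, which is tm4(ACTB-tdTomato,-EGFP)Luo at the Gt(ROSA)26Sor locus, in animals crossed to C57BL/6J. In such cells Cre switches the reporter from membrane tdTomato to membrane GFP (mGFP) for good, so that mGFP marks cells that express *Wnt4* or once did. Dissociated islet cells were separated by FACS into mGFP+ cells, called Wnt4hi (replicates 2, 3 and 4), and mGFP- cells, called Wnt4low (replicates 1, 3 and 4), and each array received RNA of 1 pool of islets from 3 or 4 pups. No treatment is given for either fraction, and the age was the same throughout. That design text gives both fractions 1 genotype, whereas a figure legend of the study labels the sides of this comparison as with and without the *Wnt4eGFPCre* allele. Nor is it stated that the fractions came from the same pools, and Wnt4hi replicate 2 and Wnt4low replicate 1 have no partner of the same number, so that the sort cannot be told apart from differences in genotype or pool.

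As background, D cyclins are made in response to growth signals and, with Cdk4 or Cdk6, begin to phosphorylate the retinoblastoma protein, which releases E2F transcription factors. Cyclin E with Cdk2 carries this through the G1/S boundary, cyclin A2 with Cdk2 works during S phase, and cyclin A2 and then B cyclins with Cdk1 lead to mitosis. In the mouse, β-cells depend on Cdk4 and on cyclins D1 and D2 for their growth in number after birth, and they divide more often in newborns than in adults.

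Values are log2 intensities after background correction and quantile normalization between arrays, and a difference is always Wnt4hi minus Wnt4low, fitted with limma over all genes. A call at the study's threshold means an unadjusted p below 0.05, and the adjusted p is that of Benjamini and Hochberg over the 45616 genes. The scanner software's mark of a spot well above background is used for what was detected. The 6 arrays lay on 1 slide, 70.5% to 79.5% of their spots were well above background, and the median spot was 10.8 to 15.6 times as bright as its local background. As a check of the sort, *Wnt4* itself, which was called at the study's threshold, was at 11.20, 10.53 and 10.77 in Wnt4hi and at 9.85, 10.11 and 9.31 in Wnt4low, which is a difference of 1.08 (SE 0.272, limma adjusted p = 0.212). The arrays of the fractions did not overlap for *Wnt4*, and its probe was well above background on all 6, Wnt4low included.

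Of the 10 genes, 6 were lower in Wnt4hi at the study's threshold (*Ccnd1*, *Ccnd3*, *Cdk6*, *Cdk2*, *Ccna2* and *Cdk1*), where 5.53% of all genes and 7.8% of the 22908 genes with a symbol were. In the opposite direction 0 of 10 were called, against 5.02% of all genes. The median difference of the 10 genes was -0.89, whereas that of all genes was 0.07. With limma and adjustment over all genes 0 of the 10 passed, where 0.438% of all genes did (184 lower and 16 higher), and the methods' t-test on the same values called 4 without and 0 with adjustment. This last test is the general one of the study's methods, whereas the study tested its arrays with limma. Its counts, here and below, are therefore an alternative and not the study's own array result. In 6 of the 10 (*Ccnd1*, *Ccnd3*, *Cdk4*, *Cdk2*, *Ccna2* and *Cdk1*) every Wnt4hi array lay below every Wnt4low array, as in 6.44% of all genes. *Cdk4* was in this second group but not called, and *Cdk6* was called while its arrays overlapped.

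**Figure D1:**
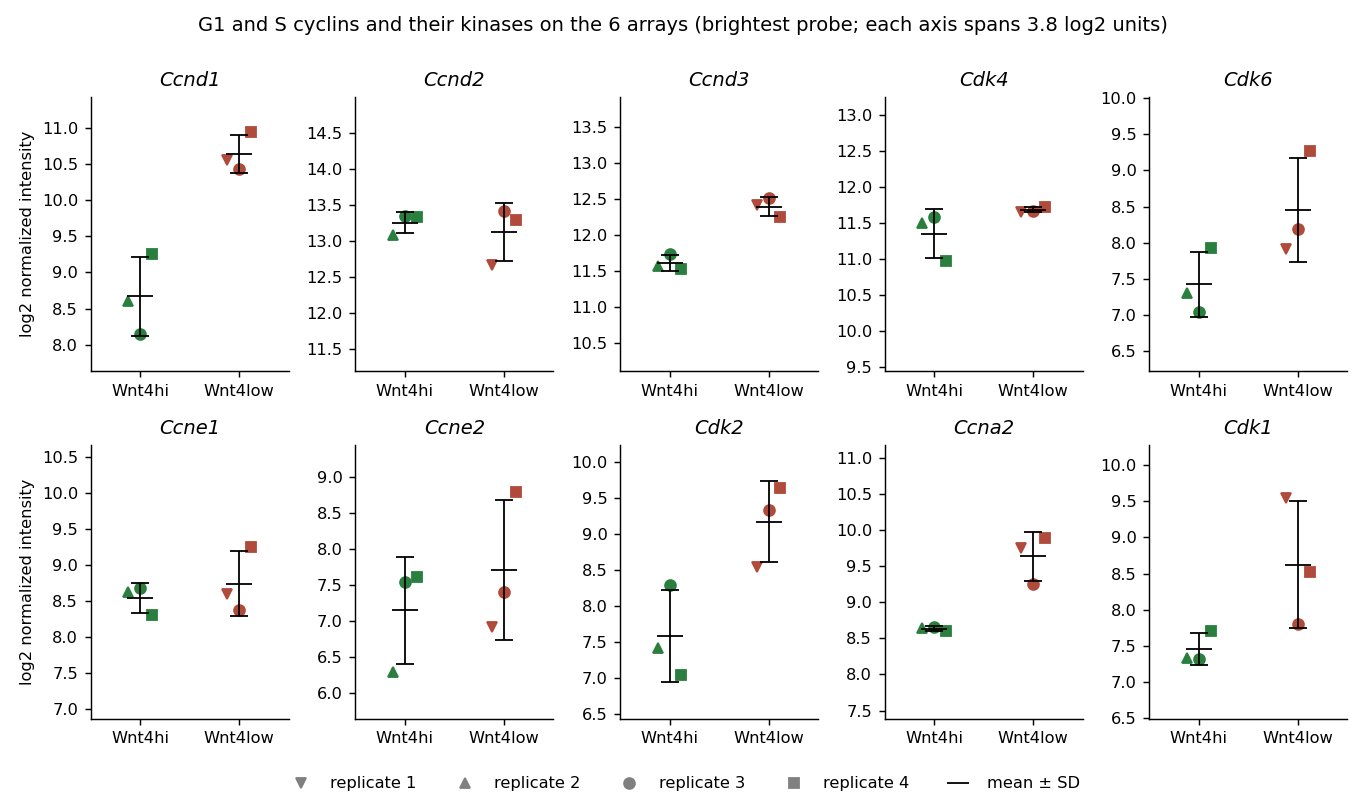
Log2 normalized intensity (y axes, each spanning 3.8 log2 units) of the brightest probe of each of the 10 genes in Wnt4hi and Wnt4low, 1 symbol per array and the mean ± SD over 3 arrays in black. The fractions stand farthest apart for *Ccnd1* and are mixed for *Ccnd2*, *Ccne1* and *Ccne2*. Heights should not be compared between panels, because each comes from another probe.

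Cyclin D1 differed most between the fractions among the 10 genes. *Ccnd1* (chromosome 7, 144929931 to 144939831, GRCm38.p6) was at 8.61, 8.15 and 9.25 on the Wnt4hi arrays and at 10.55, 10.44 and 10.95 on the Wnt4low arrays. The means were 8.67 ± 0.55 and 10.65 ± 0.26 (SD, n = 3 each), so that the gap between the fractions exceeded the spread within either. The difference was -1.98 (SE 0.306), or 3.94-fold lower in Wnt4hi, with a limma adjusted p = 0.0710. Before normalization its spot was 10.3 to 14.9 times as bright as its local background in Wnt4hi and 43.4 to 51.4 times in Wnt4low. *Ccnd1* has 1 probe on the array, and it was well above background on all 6 arrays.

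Cyclin D2, the D cyclin on which postnatal β-cell growth in the mouse relies most, did not follow *Ccnd1*. *Ccnd2* (chromosome 6, 127125162 to 127152188) was at 13.09, 13.35 and 13.33 in Wnt4hi and at 12.66, 13.42 and 13.29 in Wnt4low, so that the Wnt4hi arrays lay within the range of the Wnt4low arrays. Its difference of 0.13 (SE 0.231) was not called (limma adjusted p = 0.904). The 95% interval, from -0.43 to 0.69, does not reach the difference seen for *Ccnd1*, although the contrast between the genes was not tested. The other probes of *Ccnd2* gave -0.03 and 0.41, with adjusted p = 0.981 and 0.755 in limma over all probes, and the arrays overlapped for all 3 probes. On Wnt4low replicate 1, 2 of the 3 probes had their lowest value.

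Cyclin D3 was lower in Wnt4hi by a smaller but even amount. *Ccnd3* (chromosome 17, 47505051 to 47599689) was at 11.57, 11.74 and 11.53 in Wnt4hi and at 12.42, 12.51 and 12.26 in Wnt4low, and the arrays of either fraction lay close together beside the gap between the fractions. The difference was -0.78 (SE 0.138), a 1.72-fold lower level, with limma adjusted p = 0.0948. A second probe gave 10.93, 11.62 and 10.87 against 12.52, 11.91 and 12.13, again without overlap, and a difference of -1.05 (SE 0.270, limma adjusted p = 0.211 over all probes).

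Of the D cyclins' kinases, *Cdk6* was called and *Cdk4* was not, and the difference between them was not tested. *Cdk4* (chromosome 10, 127063535 to 127067288), the main partner of D cyclins in β-cells, was at 11.50, 11.58 and 10.97 in Wnt4hi and within 11.65 to 11.72 in Wnt4low. Every Wnt4hi array was lower, but 2 of them by little, and the difference of -0.33 (SE 0.193) was not called (limma adjusted p = 0.662). Its interval ran from -0.80 to 0.14. The other probes gave -0.29 and -0.01, both with overlapping arrays and with adjusted p = 0.736 and 0.996 over all probes.

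*Cdk6*, the other kinase of the D cyclins (chromosome 5, 3341004 to 3531008), was at 7.30, 7.04 and 7.92 in Wnt4hi and at 7.90, 8.19 and 9.27 in Wnt4low. The highest Wnt4hi array thus reached the lowest Wnt4low array. Its single probe was well above background on 1 of 3 Wnt4hi and 3 of 3 Wnt4low arrays, and its raw signal, 7.18 to 16.7 times the local background in Wnt4low, was as low as 3.84 times in Wnt4hi. The difference was -1.04 (SE 0.413, limma adjusted p = 0.455), called at the study's threshold. The call was lost without Wnt4hi replicate 2 (difference -0.98), Wnt4hi replicate 3 (-0.84), Wnt4low replicate 3 (-1.17) or Wnt4low replicate 4 (-0.63), and under the methods' t-test.

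**Figure D2:**
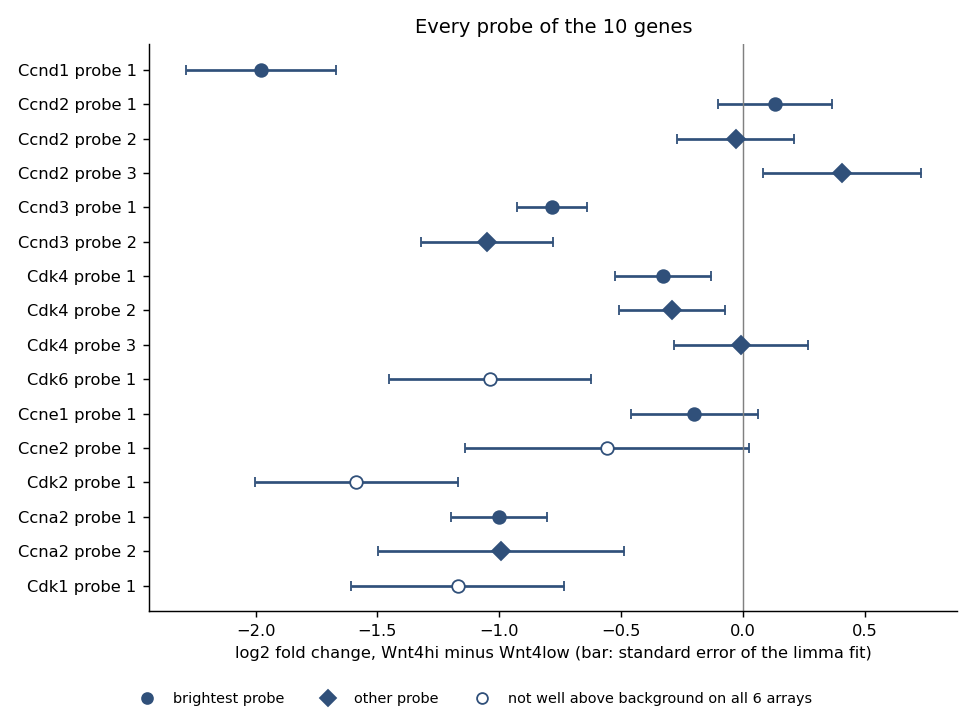
Difference in log2 intensity (x axis, Wnt4hi minus Wnt4low) with its standard error for all 16 probes of the 10 genes, from limma over all probes. Circles are the brightest probe of a gene, diamonds its other probes, and open symbols mark probes that were not well above background on all 6 arrays. Both probes of *Ccnd3* and both of *Ccna2* lie left of 0, between -1.05 and -0.78, while the 3 probes of *Ccnd2* lie on either side of 0.

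The E cyclins, which activate *Cdk2* at the end of G1, were not called. *Ccne1* (chromosome 7, 38097984 to 38107490) was at 8.63, 8.69 and 8.31 in Wnt4hi and at 8.60, 8.38 and 9.26 in Wnt4low, where replicate 4 stood above the other 5 arrays. Its difference was -0.20, with an interval from -0.83 to 0.43 (limma adjusted p = 0.864). *Ccne2* (chromosome 4, 11190433 to 11204779) was at 6.30, 7.54 and 7.61 against 6.92, 7.40 and 8.80, the highest value again coming from Wnt4low replicate 4. It was well above background on 1 array of each fraction, so that its difference of -0.56 (SE 0.580, limma adjusted p = 0.825) rests on dim spots, and its interval from -1.97 to 0.85 leaves room for a change in either direction.

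*Cdk2*, the kinase that cyclins E and A share, was the second largest difference. *Cdk2* (chromosome 10, 128697938 to 128705051) was at 7.42, 8.29 and 7.03 in Wnt4hi and at 8.54, 9.33 and 9.63 in Wnt4low. The arrays did not overlap, though the highest Wnt4hi and the lowest Wnt4low array came close to each other. The probe was well above background on 1 of 3 Wnt4hi arrays and on all 3 Wnt4low arrays. Its difference was -1.59 (SE 0.414), which is 3.00-fold lower in Wnt4hi, with limma adjusted p = 0.224.

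Cyclin A2, made from the onset of S phase and destroyed in mitosis, was lower in Wnt4hi with little spread among its arrays. *Ccna2* (chromosome 3, 36564865 to 36573038) was at 8.65, 8.66 and 8.60 in Wnt4hi and at 9.76, 9.26 and 9.90 in Wnt4low. The means of 8.64 ± 0.03 and 9.64 ± 0.34 (SD, n = 3 each) differed 2.00-fold (SE 0.195 on the log2 scale), with limma adjusted p = 0.120. A second, dimmer probe gave almost the same difference, -0.99, but with 7.69 to 8.83 in Wnt4hi and 8.49 to 10.24 in Wnt4low its arrays overlapped, and it was not called (limma adjusted p = 0.573 over all probes).

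*Cdk1*, the kinase of mitotic entry, had the widest spread among the Wnt4low arrays of the called genes. *Cdk1* (chromosome 10, 69335146 to 69352912) was at 7.33, 7.32 and 7.70 in Wnt4hi and at 9.55, 7.80 and 8.52 in Wnt4low, so that Wnt4low replicate 3 lay next to the highest Wnt4hi array. It was well above background on 1 of 3 Wnt4hi arrays and on all 3 Wnt4low arrays. The difference was -1.17 (SE 0.437), or 2.25-fold, with limma adjusted p = 0.416. Leaving out Wnt4low replicate 1 brought it to -0.71 with the call kept. The call was lost without Wnt4hi replicate 2 (difference -1.11), 3 (-1.10) or 4 (-1.30) or without Wnt4low replicate 4 (-1.22), and under the methods' t-test.

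Upstream sequence was taken for 6 of the 10 genes, as 7 windows of 250 bases before a transcript start, from a table of RefSeq (GRCm38.p6), and that of *Ccnd1*, *Ccnd2*, *Ccne2* and *Ccna2* was not analysed here. The window of *Cdk6* and 1 of the 2 windows of *Ccnd3* lie inside the gene as located above, before a start downstream of its first base. The windows were searched because genes that rise in late G1 or in G2 often carry an E2F site, a cell cycle homology region (CHR) or a CCAAT box close to their start. The letters searched, on both strands, were TTTGGCGC, TTTCGCGC, TTTCCCGC or TTTGCCGC for E2F, TTTGAA or TTCGAA for the CHR and CCAAT, and no pair of these motifs overlapped in the matches found. Of 32851 such windows in that table, 1.86% held the E2F letters, 17.1% the CHR letters and 33.8% CCAAT. The 150 bases before the start of *Cdk1* (chr10:69352913-69353062, minus strand), of *Cdk2* (chr10:128705052-128705201, minus strand) and of *Cdk4* (chr10:127063385-127063534, plus strand) follow in the direction of the gene, with the matches in capitals, the first 2 from genes that were lower in Wnt4hi and the third from one that was not called.
Cdk1: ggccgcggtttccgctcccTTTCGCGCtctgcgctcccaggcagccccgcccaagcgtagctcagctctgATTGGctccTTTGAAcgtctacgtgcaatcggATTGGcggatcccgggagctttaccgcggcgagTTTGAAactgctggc
Cdk2: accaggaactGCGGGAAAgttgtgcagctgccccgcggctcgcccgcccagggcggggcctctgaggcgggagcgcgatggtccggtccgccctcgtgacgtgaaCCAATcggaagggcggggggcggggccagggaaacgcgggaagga
Cdk4: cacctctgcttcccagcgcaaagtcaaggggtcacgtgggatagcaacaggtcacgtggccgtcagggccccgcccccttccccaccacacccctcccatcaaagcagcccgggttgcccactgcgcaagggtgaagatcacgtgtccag

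In *Cdk1* the E2F letters began 131 bases before the start, CHR letters began at 71 and 15 bases, and CCAAT, read on the other strand as ATTGG, at 80 and 48 bases and, outside the stretch printed, at 208 bases. In *Cdk2* the E2F letters, on the other strand as GCGGGAAA, began at 140 bases and CCAAT at 45 bases. *Cdk4*, *Cdk6* and *Ccne1* had no match to any of the 3 motifs in their windows, and of the 2 windows of *Ccnd3* 1 held a CCAAT, at 108 bases. The called genes with a window were thus found with and without matches, and a match is a description of the letters only.

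Array by array, the extremes of the 10 genes were spread over all 6 arrays, with the highest values in Wnt4low. Wnt4low replicate 4 had the highest value for 7 of the 10 genes, Wnt4low replicate 3 for 2 and Wnt4low replicate 1 for 1. The lowest value was on Wnt4hi replicate 4 for 5 genes, replicate 3 for 3 and replicate 2 for 1, and on Wnt4low replicate 1 for 1, which was *Ccnd2*. Taking each gene's deviation from its mean over the 6 arrays, the median of the 10 genes was -0.56, -0.18 and -0.37 in Wnt4hi replicates 2, 3 and 4 and 0.15, 0.19 and 0.69 in Wnt4low replicates 1, 3 and 4. The fractions did not overlap in this median, with the Wnt4low fraction spread the wider.

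**Figure D3:**
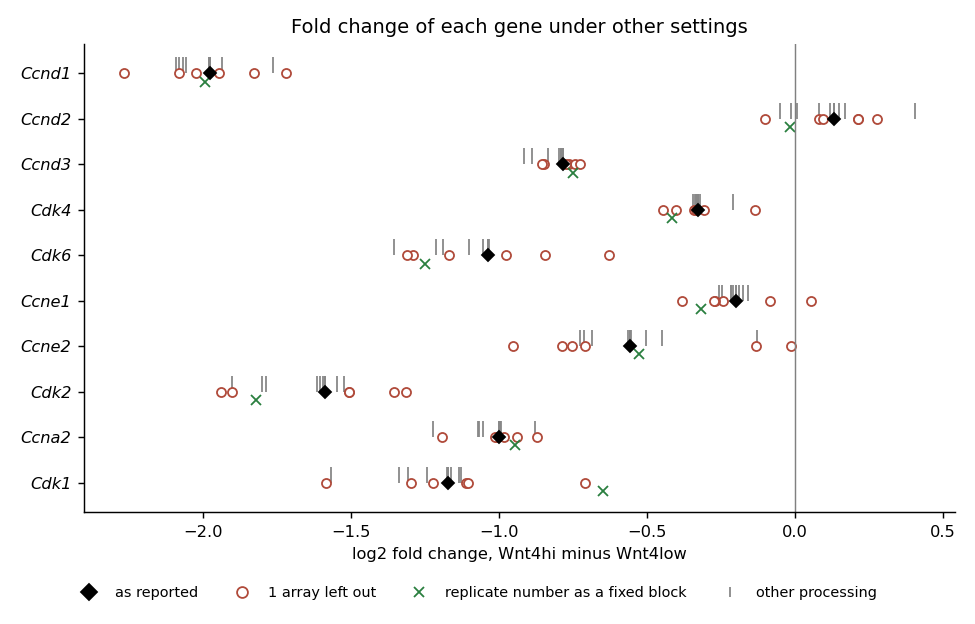
Difference in log2 intensity (x axis, Wnt4hi minus Wnt4low) of the 10 genes as reported (black diamonds), with 1 array left out (open circles), with a fixed block for the replicate number (crosses) and under the other processing choices (grey bars). *Ccnd1*, *Ccnd3*, *Cdk2* and *Ccna2* stay between -2.27 and -0.73, *Cdk1* ranges from -1.58 to -0.65, and the values of *Ccnd2* and *Ccne1* lie on both sides of 0.

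The genes around the 10 in the same pathway were read off the same fit, with lists that were put together by function. In a list of 14 genes of other cyclins and kinases, which also holds *Mnat1*, an assembly factor of the CDK-activating kinase, 0 were called by limma in either direction, with a median difference of -0.14. Over all genes 5.53% were called lower and 5.02% higher, so that 0 of 14 does not set the list apart. The B cyclins, which follow cyclin A2 as partners of *Cdk1*, were in this list. The difference was -0.07 for *Ccnb1* (brightest of its 3 probes, limma adjusted p = 0.972) and -0.21 for *Ccnb2* (limma adjusted p = 0.864), both named here after their values were seen. Of 13 pocket proteins and E2F factors, which D cyclin kinases act upon, 0 were called, with differences from -0.53 to 0.26. Beside the same shares of all genes, that count does not set the list apart either. With 1 array left out, up to 2 genes of either list were called lower. In the list of other cyclins and kinases, 1 gene was also called lower with scaling by cyclic loess. The same count was reached with the mean of a gene's probes and with the probe of smallest p.

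Of 7 CDK inhibitors 1 fell, where 5.53% of all genes did, and 1 rose, where 5.02% did, counts too small to set the list apart. *Cdkn1c*, which encodes p57 and holds back cyclin E and A kinases, was at 11.68, 10.93 and 11.38 in Wnt4hi and at 12.59, 13.41 and 13.08 in Wnt4low (difference -1.69, limma adjusted p = 0.0863). *Cdkn2b*, which encodes p15 and binds *Cdk4* and *Cdk6*, was at 10.04, 9.75 and 9.92 against 7.58, 8.57 and 9.36 (difference 1.40, limma adjusted p = 0.315). The rise was not called by the methods' t-test, and in the authors' table, with 4 of the 7 genes, 0 rose. The other 5 did not pass the test.

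Of 14 regulators of cyclin-kinase activity and turnover, 1 fell, a share of 7.14% beside 5.53% of all genes, and 0 rose. The gene that fell was *Cks2*, a small subunit that binds the kinases, at 8.80, 10.25 and 10.08 in Wnt4hi and at 11.05, 11.05 and 11.48 in Wnt4low. Its difference was -1.48 (limma adjusted p = 0.248). The others lay between -1.26 and 0.21. Among the 13 that the authors' table lists 0 fell, while 2 of 14 did without Wnt4hi replicate 3, without Wnt4low replicate 1 or with the fixed replicate block.

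Among 10 targets of mitogen signals and factors that act upstream of D cyclins, 5 fell, beside 5.53% of all genes, and 0 rose, with a median of -0.73, and 2 passed the adjusted threshold, beside 0.438% of all genes. These adjusted calls were not kept in every setting, since over all genes 0 passed with the fixed replicate block, in the methods' t-test and with each array but Wnt4hi replicate 2 left out in turn, and 2 passed without that array. *Ets1*, a transcription factor that endothelial cells and lymphocytes also express, was at 9.72, 9.81 and 9.24 in Wnt4hi and at 12.17, 12.25 and 12.52 in Wnt4low, a difference of -2.72 (limma adjusted p = 0.0194). *Tcf7*, a partner of β-catenin that the study also names, was well above background on 0 Wnt4hi and 3 Wnt4low arrays and at least 2.16-fold lower in Wnt4hi (limma adjusted p = 0.0232, measured means 6.79 and 8.44). *Myc*, which drives growth and the cyclin genes, differed by -1.26 (limma adjusted p = 0.126) and *Jun*, part of AP-1, by -0.88 (limma adjusted p = 0.134), neither with overlapping arrays.

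Downstream, 6 of 25 replication genes that E2F controls fell, a share of 24.0% beside 5.53% of all genes, and 0 rose, with a median of -0.48. *Pcna*, the sliding clamp of DNA polymerases, which the study also names, was at 12.43, 12.84 and 13.05 in Wnt4hi and at 13.66, 13.38 and 13.77 in Wnt4low (difference -0.83, limma adjusted p = 0.207). *Rrm1*, a subunit of ribonucleotide reductase, differed by -0.77 (limma adjusted p = 0.132) and *Mcm6*, of the replicative helicase, by -0.68 (limma adjusted p = 0.423), with arrays that did not overlap. The count moved with single arrays, to 2 of 25 without Wnt4hi replicate 4, 2 without Wnt4low replicate 1, 3 without Wnt4low replicate 4 and 10 without Wnt4low replicate 3, and it was 3 under the methods' t-test and 12 with the probe of smallest p.

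Of 20 mitosis genes 9 fell, beside 5.53% of all genes, and 0 rose, with a median of -0.63. *Mki67*, a marker of dividing cells that the study names too, was at 10.61, 9.89 and 11.41 in Wnt4hi and at 11.96, 11.32 and 12.78 in Wnt4low, where the arrays overlapped (difference -1.38, limma adjusted p = 0.402). *Foxm1*, which drives the genes of G2 and mitosis, differed by -1.36 (limma adjusted p = 0.241), *Birc5*, of the chromosomal passenger complex, by -1.29 (limma adjusted p = 0.300), *Cdca8*, of the same complex, by -0.80 (limma adjusted p = 0.224) and *Kif20a*, a kinesin of cytokinesis, by -0.44 (limma adjusted p = 0.427). Without Wnt4low replicate 4 the count was 2 of 20, without Wnt4low replicate 1 it was 3, without Wnt4hi replicate 2 it was 3 and without Wnt4hi replicate 4 it was 5, whereas without Wnt4low replicate 3 it was 11. Under the methods' t-test it was 4.

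**Figure D4:**
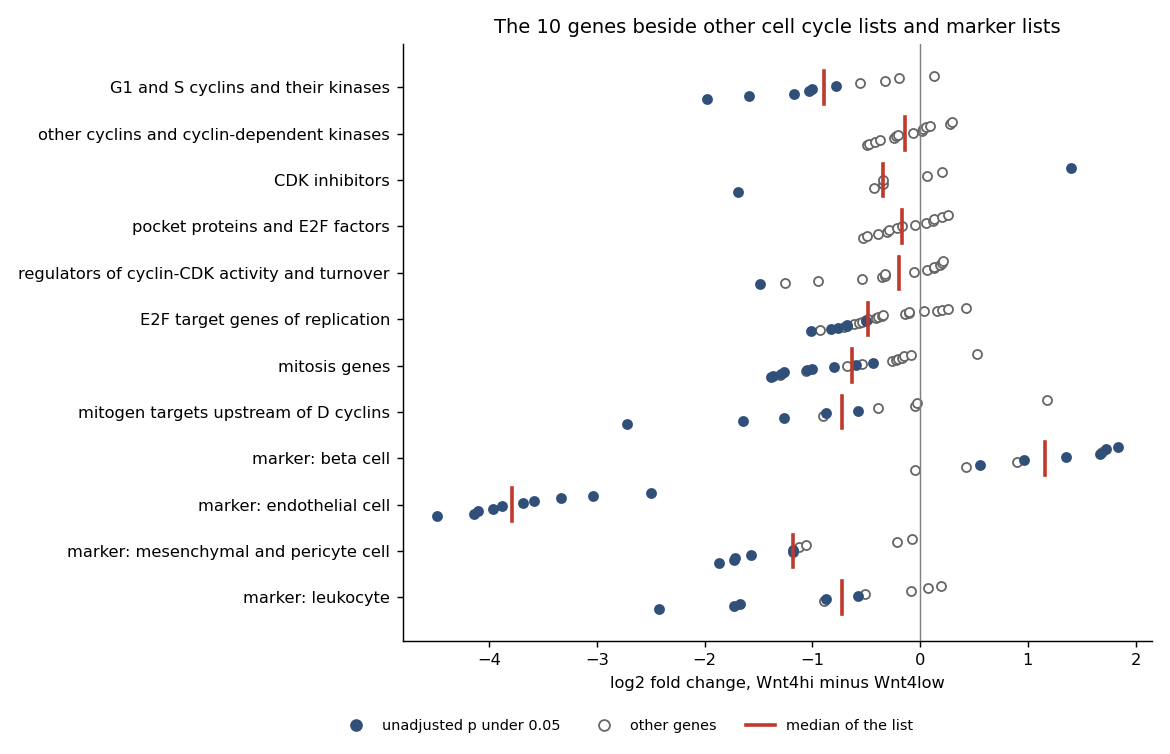
Difference in log2 intensity (x axis, Wnt4hi minus Wnt4low) of each gene in the list named on the y axis, filled where the unadjusted limma p was below 0.05, with the median of each list as a red bar. The 10 cyclins and kinases have a median of -0.89, the list of other cyclins and kinases, *Mnat1* included, one of -0.14 and the endothelial markers one of -3.79.

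Markers of other cell types moved with the fractions as well. All 10 endothelial markers were called lower in Wnt4hi, beside 5.53% of all genes, with a median of -3.79. Of them 8 passed the adjusted threshold of limma, beside 0.438% of all genes in either direction. The adjusted count was not stable, since over all genes at most 2 passed with any 1 array left out and 0 with the fixed replicate block or in the methods' t-test. The summed intensity of the 10 markers was 3044 to 4351 in Wnt4hi and 32835 to 58013 in Wnt4low. *Tek* and *Tie1* were well above background on 0 of the 3 Wnt4hi arrays, the other markers of the list on 2 or 3. *Plvap*, *Robo4* and *Pecam1*, whose probes were the brightest of the list in Wnt4low, had differences of -4.10, -4.49 and -3.04. Mesenchymal and pericyte markers were lower for 6 of 10 genes (median -1.18, summed intensity 35406 to 67951 against 83039 to 110900). Leukocyte markers were lower for 5 of 10 (median -0.72), both beside 5.53% of all genes. Of either list 0 rose, beside 5.02% of all genes. The leukocyte sums, 64583 to 77680 against 75452 to 101530, overlapped. Most of each sum came from the brightest probe, *Itgam*, at means of 15.89 and 15.98. It was not called (difference -0.09, limma adjusted p = 0.926), so that the sums say little of the called leukocyte markers.

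Endocrine markers went the opposite way or were mixed. Of 10 β-cell markers 6 rose in Wnt4hi, beside 5.02% of all genes, and 0 fell, beside 5.53%. Their median was 1.16 and their summed intensity 327990 to 336160 against 190370 to 292870. The 4 that were not called include *Ins1* and *Mafa*, with differences of 0.43 and -0.05. The insulin genes stayed bright in both fractions, with means of 16.88 and 16.45 for *Ins1* and of 16.64 and 16.08 for *Ins2*, and each of the 10 β-cell markers was well above background on every array. Of 8 markers of α-, δ- and other endocrine cells 4 rose and 2 fell, beside 5.02% of all genes called higher and 5.53% lower. Of 8 acinar markers 1 rose, a share of 12.5% beside 5.02% of all genes, and 1 fell. Also, 1 fell of 8 duct, of 6 Schwann cell and of 5 erythroid markers. The shares lower in these lists were 12.5% to 20.0%, beside 5.53% of all genes. RNA of a mixed fraction cannot tell fewer cells of a kind from less RNA per cell, and the part of the endothelial, mesenchymal and leukocyte cells in the lower cyclin and kinase levels of Wnt4hi was not tested.

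**Figure D5:**
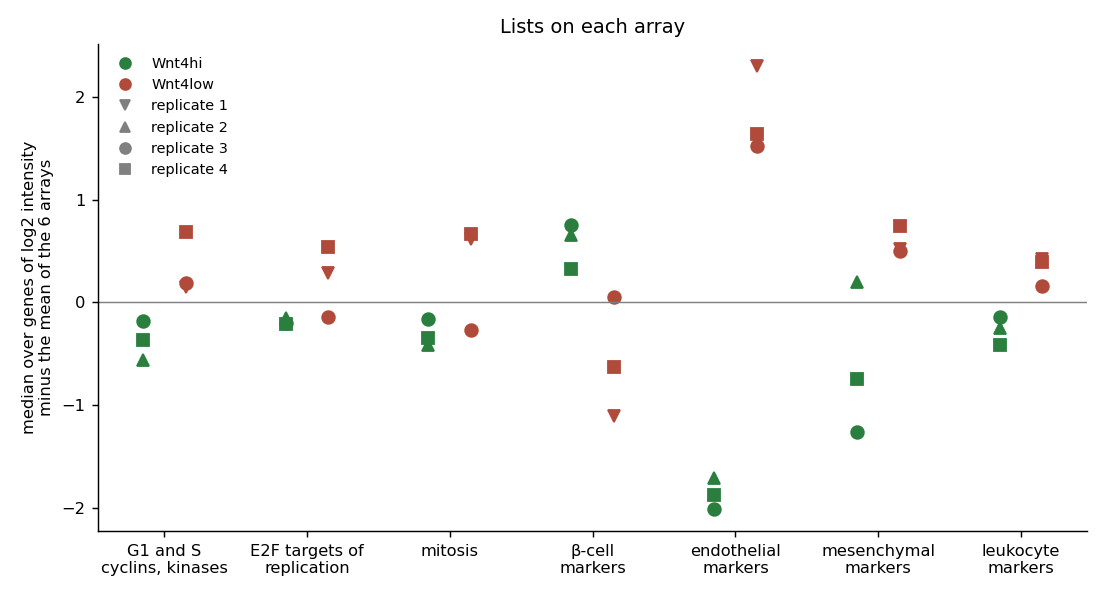
Median over the genes of a list of the log2 intensity minus the mean over the 6 arrays (y axis), 1 symbol per array in green for Wnt4hi and in red for Wnt4low. Wnt4low replicate 3 lies with the Wnt4hi arrays for the mitosis genes (-0.27) and above them for the cyclins and kinases (0.19) and endothelial markers (1.53).

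Single arrays did not lie with their fraction in every list. Wnt4low replicate 1 was at a median deviation of -1.84 for the α-, δ- and other endocrine markers, against -0.23 and -0.10 in Wnt4low replicates 3 and 4. Its acinar sum was 4610 against 28590 and 20940, and its duct sum 17369 against 9181 and 9614. Wnt4hi replicate 2 stood apart for the mesenchymal and pericyte markers, with a median deviation of 0.19 against -1.26 and -0.74 in Wnt4hi replicates 3 and 4 and a sum of 67951 against 35406 and 41041. Wnt4low replicate 3 stood apart for the mitosis genes and the E2F targets. It did not for the 10 cyclins and kinases, at 0.19 beside 0.15 and 0.69 in Wnt4low replicates 1 and 4. For the mitosis genes the median deviation of Wnt4low replicate 3 was -0.27, within the range of the Wnt4hi arrays (-0.41 to -0.16), while Wnt4low replicates 1 and 4 were at 0.61 and 0.67. For the E2F targets it was -0.14, next to -0.21 to -0.15 in Wnt4hi. Its *Ccnd1* level of 10.44 and its *Cdk2* level of 9.33 lay above every Wnt4hi array. The β-cell marker sum of this array, 292870, was the highest of the Wnt4low fraction and its endothelial sum, 32835, the lowest, though still above the highest Wnt4hi sum of 4351.

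The genes most like *Ccnd1* over the 6 arrays, by the root mean square difference of profiles centred on their mean among 18643 named genes, were *Endod1* (0.131), *Mustn1* (0.184), *Ccn2* (0.210), *Cnn2* (0.220) and *Plek* (0.225). Their differences ran from -2.29 to -1.70. Those most like *Cdk1* were *Rflnb* (0.123), *Cd52* (0.190), *Rnd1* (0.205), *Afap1l1* (0.210) and *Adgrl4* (0.211). Neither set held another of the 10 cyclins and kinases, and likeness over 6 arrays of 2 fractions is a description only.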

How the data were processed

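RNA of 3 Wnt4hi and 3 Wnt4low pools was turned into amplified, Cy5-labelled cDNA and read on Agilent arrays of 1 color, 1 pool on each. Per the file headers the deposited scanner files hold spot and local background intensity, not normalized, from Feature Extraction 12.0.1.1, while the submitters' processing notes name 9.1. A second deposited file, the authors' normalized log2 values, served as an alternative. The groups and replicate numbers come from the titles in the labels. Nothing says that the pools came from separate litters, so that p-values measure the spread between these samples. All arrays shared 1 slide. Precision is limited by how few arrays there are.

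Median spot and background intensities were corrected with normexp (offset 50) and normalized by quantiles (R 4.3.3, limma 3.58.1). Control spots were left out, as were outlier spots (50 to 141 per array), while 0 spots were saturated. Of 35886 probes with a RefSeq-type accession, 32994 matched a RefSeq gene table (GRCm38.p6). A gene was read from its brightest probe on average, and each probe was also fitted on its own. Wnt4hi and Wnt4low were compared with lmFit and eBayes, without covariates. With 3 arrays a side, exact permutation gives no p below 0.1 and was not used. A "no overlap" count compares single arrays. A gene well above background on 0 arrays of a fraction has a bound, from means of normalized log2 values in which a dim array counts as no less than the lowest value well above background.

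The members and the lists were chosen with earlier results of these data known. The genes named are the 10 members, *Wnt4*, *Mki67* and *Pcna*, in each pathway list those past the adjusted threshold and at most 4 with the smallest p among called genes without overlap, 5 most alike for *Ccnd1* and *Cdk1*, and at most 3 of the brightest markers of a list. Outside this rule, *Ccnb1*, *Ccnb2*, *Mnat1*, *Tek* and *Tie1* were named after their values were seen. Values of 1 gene that this rule names are not reported here. Of the erythroid markers Hbb-bs was not matched. The alternatives changed the background correction, scaling, dim and outlier spots, choice of probe, variance model, test, values and replicate block, and left out each array. One alternative, the authors' table without a column, was chosen after seeing the data. The fit was tested on simulated data.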

Additional observations from a re-analysis of the deposited data

How the results depend on the processing

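Under 22 other settings, 4 of the 10 genes kept their direction and an unadjusted limma or t-test p below 0.05 wherever they were measured: *Ccnd1* (22), *Ccnd3* (20), *Cdk2* (22) and *Ccna2* (22). *Cdk6* kept it in 15 of 20 and *Cdk1* in 16 of 22. The count of members lower in Wnt4hi was 6, and 4 to 6 with 1 array left out. It was 4 in the methods' t-test and 4 of 7 matched members in the authors' table, where no probe was matched to *Ccnd3*, *Cdk4* or *Cdk6*. In that table the column labelled Wnt4hi replicate 2 correlated with its scanner file across genes at r = 0.271, the others with theirs at 0.843 to 0.872. Without this column, an alternative chosen after seeing the data, the count was 3 of 7. Members past the adjusted threshold numbered 0 except with only probes well above background on all arrays of 1 group, where 1 (*Ccnd1*, adjusted p = 0.0327, range over its settings 0.0327 to 0.365) passed.

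Over all genes 200 passed the adjusted threshold of limma, but 504 with that filter, 326 with the probe of smallest p, 406 in the authors' table and 316 without the column. There were 0 in the methods' t-test and 0 with the fixed replicate block. With 1 array left out there were 0 to 2 (2 without Wnt4hi replicate 2 and 0 without each of the other 5). Among the 10 genes, their other probes and *Wnt4*, no setting reversed a call, and direction by setting was not followed for other genes.

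The fractions share replicate numbers 3 and 4 only. Deviations of same-numbered arrays correlated at -0.03 and 0.16, so the numbers do not establish pairs. The fixed replicate block, which rests on those numbers, and the random replicate block each called 6 members, and the members' median difference was -0.70 and -0.89. The causes of these shifts were not tested. Spots near background limit what can be said of *Cdk6*, *Ccne2*, *Cdk2* and *Cdk1*.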
